A study of Mus musculus with 8 samples.

Results

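The Serpina3 cluster is a row of related genes that encode serine protease inhibitors (serpins). Its 7 members measured here were Serpina3c, Serpina3f, Serpina3g, Serpina3h, Serpina3i, Serpina3m and Serpina3n, out of 40659 gene identifiers in the count table. They were chosen by name with earlier results of the hp708 against hpCTL contrast and of the 8 libraries known, so the group values of these members are a description, and nothing is read from the counts of members past a threshold. The table held 11 genes whose symbol begins with Serpina3, and the other 4 were Serpina3a, Serpina3b, Serpina3j and Serpina3k.

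The libraries came from whole hippocampi of male wild-type C57BL/6JRj mice, aged 12 to 13 weeks, with 4 mice in each group. The hp708 mice had received a recombinant adeno-associated virus that carries a hairpin for miR-708-5p in an EGFP transcript, and the hpCTL mice the same kind of virus with a control hairpin. In both groups the human synapsin promoter, which is active in neurons, drove the construct, and the virus was injected into dorsal and ventral hippocampus at 7 to 8 weeks of age, 4 weeks before dissection. These ages are given as the study's sources state them, and they do not add up exactly. All mice of both groups carried a virus and had had surgery, and no uninjected hippocampus was compared here. The library labelled hp708 replicate 1 came from an animal that the study's qPCR source table lists among its hpCTL animals. Fitted values of Serpina3f, Serpina3g and Serpina3n and of most gene lists are therefore also given without it. Fold changes of other single genes are given with it.

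Serpins act as baits. A protease cuts an exposed stretch near the end of the serpin, the reactive centre loop, and is then trapped in a covalent complex, and the amino acids of this loop decide which proteases are caught. Humans have a single gene at this position, SERPINA3 (alpha-1-antichymotrypsin), an acute-phase protein of plasma, whereas mice have a row of copies. Serpina3n is a secreted inhibitor of granzyme B and neutrophil proteases that astrocytes make after injury or inflammation, and Serpina3g, also called Spi2A, is an intracellular inhibitor of cysteine cathepsins that interferons induce in leukocytes.

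The cluster spanned 301615 bases, chr12:104078983-104380597 in GRCm39. From one end to the other, Serpina3c lay on the minus strand at chr12:104110471-104141177. The other 6 members lay on the plus strand: Serpina3f at chr12:104180772-104187388, Serpina3g at chr12:104202386-104208203, Serpina3h, annotated as a transcribed pseudogene, at chr12:104216411-104219928, Serpina3i at chr12:104229363-104238677, Serpina3m at chr12:104304745-104361078 and Serpina3n at chr12:104372810-104380597. The span of Serpina3m overlaps that of Serpina3k, with which it shares 60 exon bases.

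The members are close copies of each other. Between canonical transcripts, coding identity ran from 81.9% (Serpina3g with Serpina3m, over 651 aligned bases) to 91.3% (Serpina3f with Serpina3i, over 1227 aligned bases). Serpina3n shared 85.6% with Serpina3f and 84.2% with Serpina3g. Identity was lower in the stretch that codes for the reactive centre loop, where Serpina3n shared 78.4% with Serpina3f over 102 aligned bases and 67.6% with Serpina3g over 108. The 108 coding bases from the conserved hinge of the loop onward are shown for the members that carried most reads, from GENCODE transcripts on GRCm39, because they show where these related genes part. Capitals mark bases that differ from Serpina3n or have no counterpart in it.
Serpina3n, coding bases 1099 to 1206: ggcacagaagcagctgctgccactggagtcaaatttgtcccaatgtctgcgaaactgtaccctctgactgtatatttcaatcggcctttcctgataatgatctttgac
Serpina3g, coding bases 493 to 600: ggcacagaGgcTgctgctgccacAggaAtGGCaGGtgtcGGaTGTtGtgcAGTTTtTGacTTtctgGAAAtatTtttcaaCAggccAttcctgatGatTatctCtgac
Serpina3f, coding bases 1069 to 1176: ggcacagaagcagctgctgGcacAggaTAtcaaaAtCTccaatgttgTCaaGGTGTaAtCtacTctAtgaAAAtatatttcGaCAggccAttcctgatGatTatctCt
Few capitals fall in the bases at the start, which code for the hinge, and most fall in the stretch that follows.

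Because of this likeness, a read can match more than one gene of the cluster. Of all 50-base windows in the exons and splice junctions of Serpina3n, 3.94% also occurred elsewhere in the cluster or within 500000 bases of it. The share was 10.4% for Serpina3f, 13.8% for Serpina3g and 23.9% for Serpina3h. For 100-base windows it fell to 0.0887% for Serpina3n, 3.32% for Serpina3f, 2.21% for Serpina3g and 4.26% for Serpina3h. How the authors' counting treated reads with several matches is not stated in the sources used here, so the small counts of Serpina3h, Serpina3i, Serpina3c and Serpina3m are uncertain.

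Serpina3n carried most of the cluster's reads in every library. Over the 8 libraries its mean level was 29.6 ± 13.2 CPM per kb (SD), that is, counts scaled to library size (CPM) and divided by the kilobases of annotated exon, followed by Serpina3g at 3.64 ± 1.53 and Serpina3f at 2.21 ± 1.28. The remaining members were lower, with Serpina3h at 0.351 ± 0.254 CPM per kb, Serpina3i at 0.0594 ± 0.0309, Serpina3c at 0.0549 ± 0.0338 and Serpina3m at 0.00383 ± 0.0075. Serpina3n exceeded Serpina3g, Serpina3g exceeded Serpina3f and Serpina3f exceeded Serpina3h in 8 of 8 libraries. Serpina3h exceeded Serpina3i in 7 of 8 libraries and Serpina3i exceeded Serpina3c in 4 of 8, so this last pair did not differ in order beyond the spread between libraries.

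**Figure D1:**
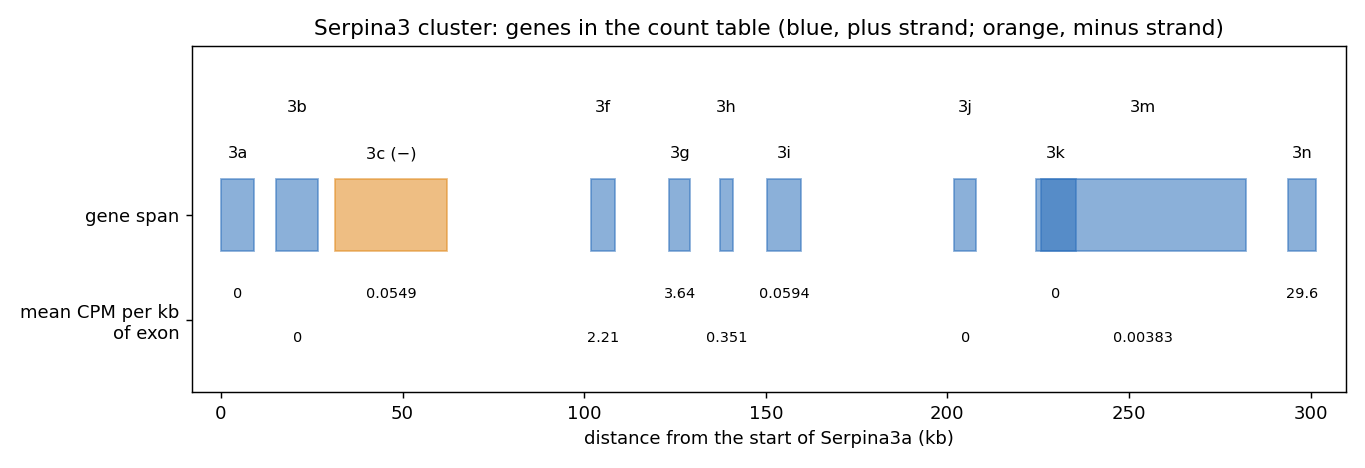
Genes of the Serpina3 cluster in the count table, drawn by distance (kb) from the start of Serpina3a, with blue boxes for the plus strand and an orange box for the minus strand; the number under each gene is its mean level over the 8 libraries in CPM per kb of exon. Serpina3n, at the far end, had 29.6 CPM per kb, and Serpina3a, Serpina3b, Serpina3j and Serpina3k had no read.

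By count, Serpina3n held between 81.1% (hpCTL replicate 4) and 93.1% (hp708 replicate 3) of all reads assigned to the members. Serpina3g held 4.06% to 12.1% and Serpina3f 1.19% to 6.68%. Serpina3a, Serpina3b, Serpina3j and Serpina3k had 0 counts in all 8 libraries, which at 3 counts allows a level of up to 0.105 to 0.133 CPM, depending on the library. Serpina3k is an abundant liver serpin and overlaps Serpina3m, which had 3 reads in all: 1 in hpCTL replicate 2 and 2 in hp708 replicate 4. Of 14 clade A serpin genes outside the Serpina3 group, 8 had no count and 0 had enough reads to be tested.

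The Serpina3n level was narrow in the control group and wide in hp708. The hpCTL replicates 1 to 4 stood at 99.1, 81.5, 104 and 106 CPM (97.6 ± 11.1, SD, n = 4). The hp708 replicates 1 to 4 stood at 83.3, 115, 94.9 and 240.6 CPM (133 ± 72.6, SD, n = 4). One library, hp708 replicate 4, was 2.43 times the median of the other 7, and the next highest library was at 115 CPM. The groups overlapped, and without hp708 replicate 4 the hp708 mean was 97.7 ± 16.0 CPM (SD, n = 3), against 97.6 in hpCTL. The reads behind these values were 5825 in hp708 replicate 4 and 1865 to 2816 in the other libraries.

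Serpina3g was measured at 6.10, 10.1, 14.9 and 15.7 CPM in hpCTL and at 6.45, 9.87, 4.26 and 10.6 CPM in hp708. The group means were 11.7 ± 4.49 and 7.79 ± 2.96 CPM (SD, n = 4 each), and the groups overlapped. Its lowest value was that of hp708 replicate 3, and its highest values were those of hpCTL replicates 3 and 4.

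Serpina3f fell into separate levels that did not follow the groups. It was at 1.29, 6.60, 7.79 and 7.89 CPM in hpCTL and at 1.63, 7.35, 1.88 and 6.61 CPM in hp708. hpCTL replicate 1 and hp708 replicates 1 and 3 were thus low, and the other 5 libraries lay within a narrow band, with no library in between. The group means were 5.89 ± 3.13 and 4.37 ± 3.03 CPM (SD, n = 4 each).

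The rare members had few reads in any library. Serpina3h had 14, 5, 18 and 12 reads in hpCTL and 8, 1, 5 and 24 in hp708. Serpina3c had 17, 5, 3 and 8 reads in hpCTL and 9, 1, 10 and 14 in hp708. Serpina3i had 8, 4, 10 and 9 reads in hpCTL and 9, 8, 5 and 19 in hp708. In Serpina3h and Serpina3i the highest library was hp708 replicate 4, as for Serpina3n, and the groups of all 3 genes overlapped.

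**Figure D2:**
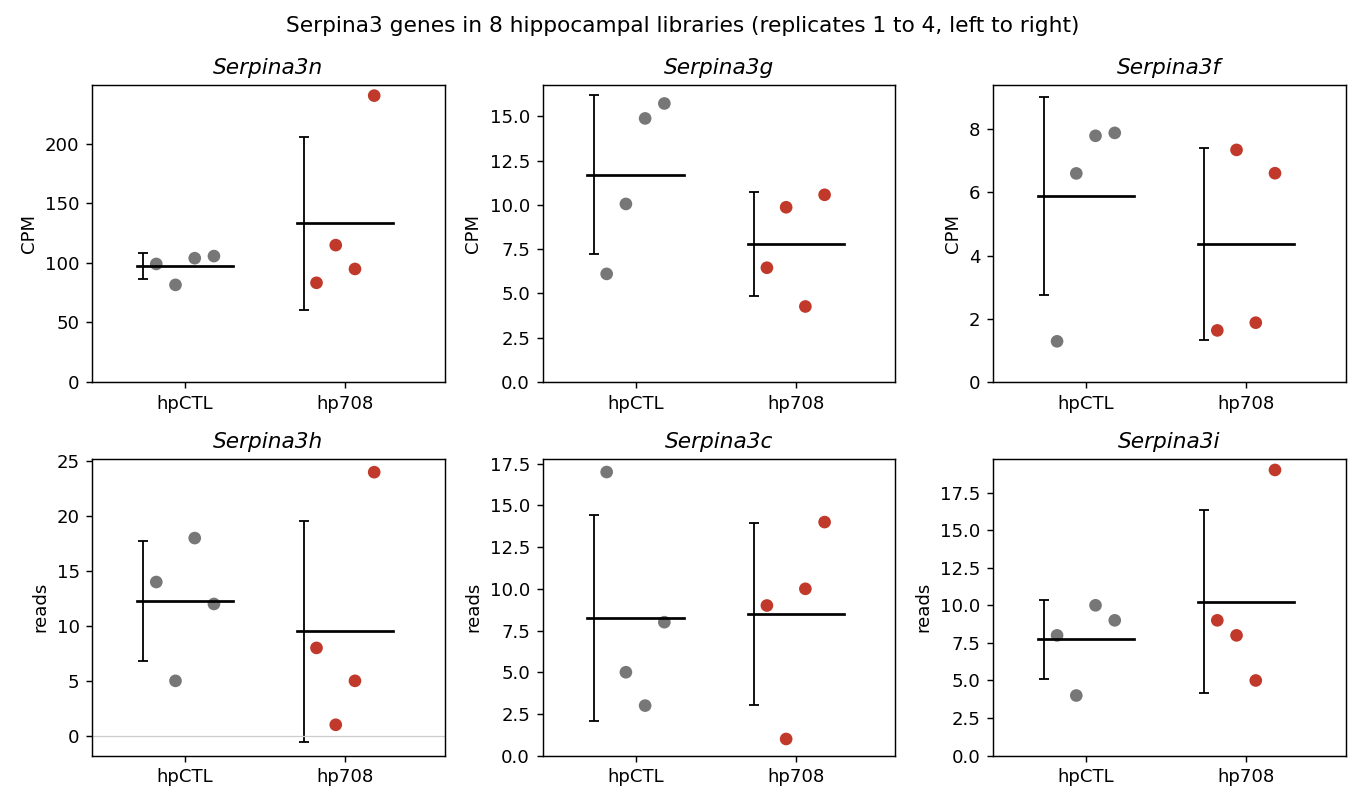
Level of each Serpina3 member with more than 3 reads in hpCTL (grey) and hp708 (red), in CPM for Serpina3n, Serpina3g and Serpina3f and in reads for Serpina3h, Serpina3c and Serpina3i; points are replicates 1 to 4 from left to right, and lines and bars are the mean and SD of 4 mice. Serpina3n stood at 240.6 CPM in hp708 replicate 4, and Serpina3f was at 1.29 to 1.88 CPM in hpCTL replicate 1 and hp708 replicates 1 and 3.

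Serpina3f, Serpina3g and Serpina3h varied more between mice than most tested genes, and Serpina3n did so only through 1 library. Over the 8 libraries the coefficient of variation was 57.8% for Serpina3f, 42.0% for Serpina3g, 72.2% for Serpina3h and 44.8% for Serpina3n, against a median of 12.9% over the 17252 genes tested. A higher coefficient was found in 2.76% of tested genes for Serpina3f, 8.10% for Serpina3g, 1.35% for Serpina3h and 6.82% for Serpina3n. Without hp708 replicate 4, left out after the values were seen, the coefficient of Serpina3n was 12.4%, against a median of 12.5% over all tested genes in the same 7 libraries, while those of Serpina3f and Serpina3g were 63.8% and 45.8%. The Serpina3h value rests on 1 to 24 reads per library. The highest library was 6.14 times the lowest for Serpina3f, 3.69 times for Serpina3g and 2.95 times for Serpina3n.

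Whether the miR-708-5p hairpin changed these genes was the question of the contrast. In the fit across all genes (edgeR quasi-likelihood test with 3 surrogate variables), 4 of 7 members had enough reads and 0 of them passed a false discovery rate (FDR) of 0.05, beside 0.0058% of all tested genes. At an unadjusted p under 0.05 it was 2 of 4, Serpina3f and Serpina3g, both lower in hp708, beside 7.7% of all tested genes. Without surrogate variables 0 of 4 had an unadjusted p under 0.05, beside 1.81% of genes. Without the library labelled hp708 replicate 1, with 3 surrogate variables, 2 of 5 had such a p in either direction, beside 12.2%. Serpina3n was 1 of these 2, higher in hp708 (FDR 0.053, edgeR quasi-likelihood test). The levels of 0 of 7 members were free of overlap between the groups, beside 1.51% of tested genes. With the edgeR likelihood ratio test in the same design 1 member passed the FDR, Serpina3f, beside 0.736% of tested genes. With DESeq2 and 3 surrogate variables 2 did, Serpina3f and Serpina3g, beside 0.556%. The contrast entered the choice of members, so nothing is read from these counts.

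The fitted log2 fold changes (hp708 minus hpCTL) were -1.07 for Serpina3f (SE 0.15), -0.83 for Serpina3g (SE 0.21), -0.56 for Serpina3h (SE 0.68) and 0.19 for Serpina3n (SE 0.26). The median over all tested genes was -0.0091. Without surrogate variables the values were -0.43 for Serpina3f (SE 0.61), -0.59 for Serpina3g, -0.31 for Serpina3h and 0.45 for Serpina3n. The Serpina3f value was therefore larger in size, and its error smaller, with variables that were estimated from the libraries themselves.

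Single libraries carried much of these values. Without the library labelled hp708 replicate 1, the log2 fold change of Serpina3f was -0.31, that of Serpina3g -0.51 and that of Serpina3n 0.71. Without hp708 replicate 4, Serpina3f was at -1.54, Serpina3g at -1.06 and Serpina3n at -0.07. Serpina3n thus changed sign when hp708 replicate 4 was left out, and without surrogate variables it then stood at 0.0048.

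**Figure D3:**
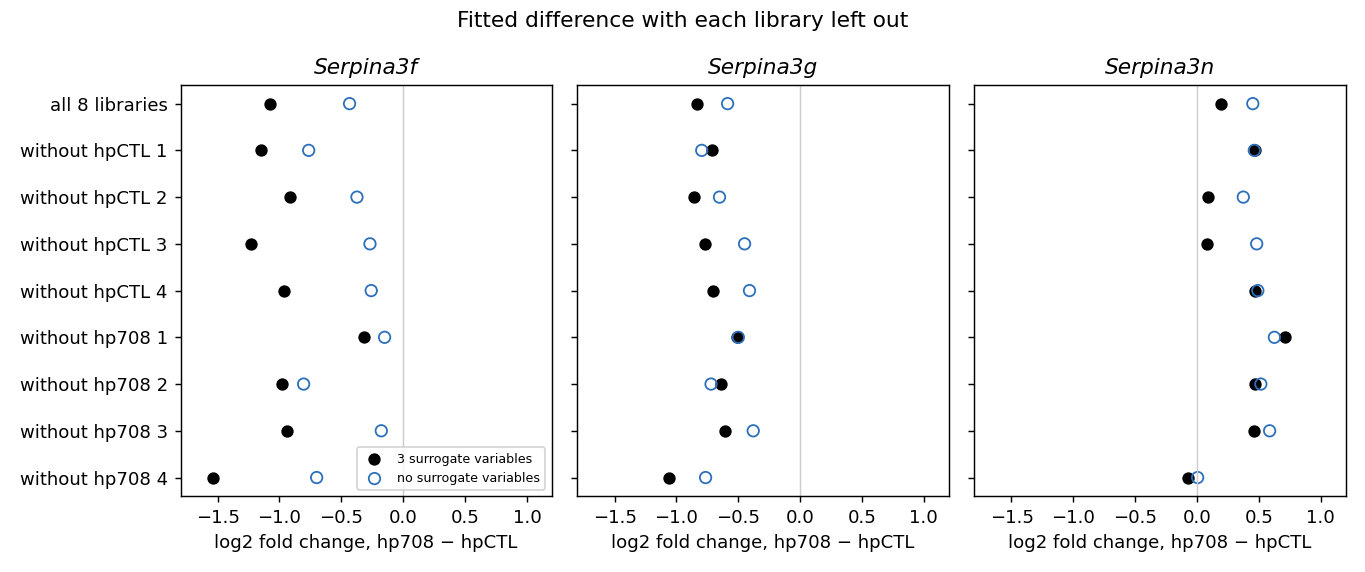
Log2 fold change (hp708 minus hpCTL) of Serpina3f, Serpina3g and Serpina3n with all 8 libraries (top line) and with each library left out in turn, fitted with 3 surrogate variables (filled points) or with none (open points). Serpina3f moved between -1.54 and -0.31 and Serpina3n between -0.07 and 0.71 with 3 surrogate variables.

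Serpina3f and Serpina3g were high and low in the same libraries. Both were low in hpCTL replicate 1 and in hp708 replicates 1 and 3. Since Serpina3f values fell into separate clusters of fewer than 6 libraries, no correlation between it and another member is given. There were 0.211, 0.657, 0.523 and 0.501 Serpina3f reads per Serpina3g read in hpCTL replicates 1 to 4, and 0.253, 0.744, 0.44 and 0.625 in hp708 replicates 1 to 4, so Serpina3f was low relative to Serpina3g in both replicates 1. Serpina3g and Serpina3n did not vary together detectably (Pearson r = 0.27, exact permutation p = 0.556, Spearman rho = 0.45, exact permutation p = 0.267, n = 8 libraries, adjusted p = 0.556 and 0.267 over the 3 pairs of Serpina3f, Serpina3g and Serpina3n). Leaving out the 2 libraries farthest from the median of Serpina3g, hpCTL replicate 1 and hp708 replicate 3, gave r = 0.17.

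The genes most like Serpina3f over the 8 libraries, out of 15488 compared, were Entpd1 (r = 0.99), which encodes the ectonucleotidase CD39, and the interferon-stimulated genes Zbp1, Ifi44, Trim12a and Herc6. The r of log2 CPM is used here only to rank likeness, and for Serpina3f it rests on libraries that lie at separate levels. Ifi44 was at 3.18, 10.6, 11.6 and 12.1 CPM in hpCTL and at 3.41, 10.6, 4.52 and 8.92 CPM in hp708. It was low in the same libraries as Serpina3f. The genes most like Serpina3g were Rab3il1 (r = 0.97), Slc31a2, Tgfb1, Tnfrsf18 and Sp110. Tgfb1, which encodes transforming growth factor beta, was at 7.82, 9.18, 12.4 and 13.0 CPM in hpCTL and at 7.32, 10.9, 6.91 and 11.3 CPM in hp708.

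The 10 genes most like Serpina3n were Kcne5 (r = 0.98), Serpinf2, Inhba, Lman2, Tnfrsf12a, Egln3, Prss23, Kif6, Scrt2 and Tspan5. All 10 were highest in hp708 replicate 4, by 1.30 to 3.94 times the median of the other 7 libraries. This follows largely from how they were picked, since that library carried most of the spread of Serpina3n. The coefficient of variation of Serpina3n was 44.8% with it and 12.4% without it. Inhba, the activin A subunit that neuronal activity and injury induce, was at 27.8 CPM in that library and at 5.95 to 8.00 CPM in the others. Tnfrsf12a, the receptor of the cytokine TWEAK, was at 8.10 CPM against 1.88 to 2.96 CPM, and the secreted protease gene Prss23 was at 62.1 CPM against 17.0 to 23.7 CPM. Serpinf2, which encodes the plasmin inhibitor alpha-2-antiplasmin, was at 3.14 CPM against 0.616 to 1.05 CPM. Without that library, a choice made after the values were seen, r with Serpina3n over the other 7 libraries was 0.56 to 0.85 for the 10 genes.

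**Figure D4:**
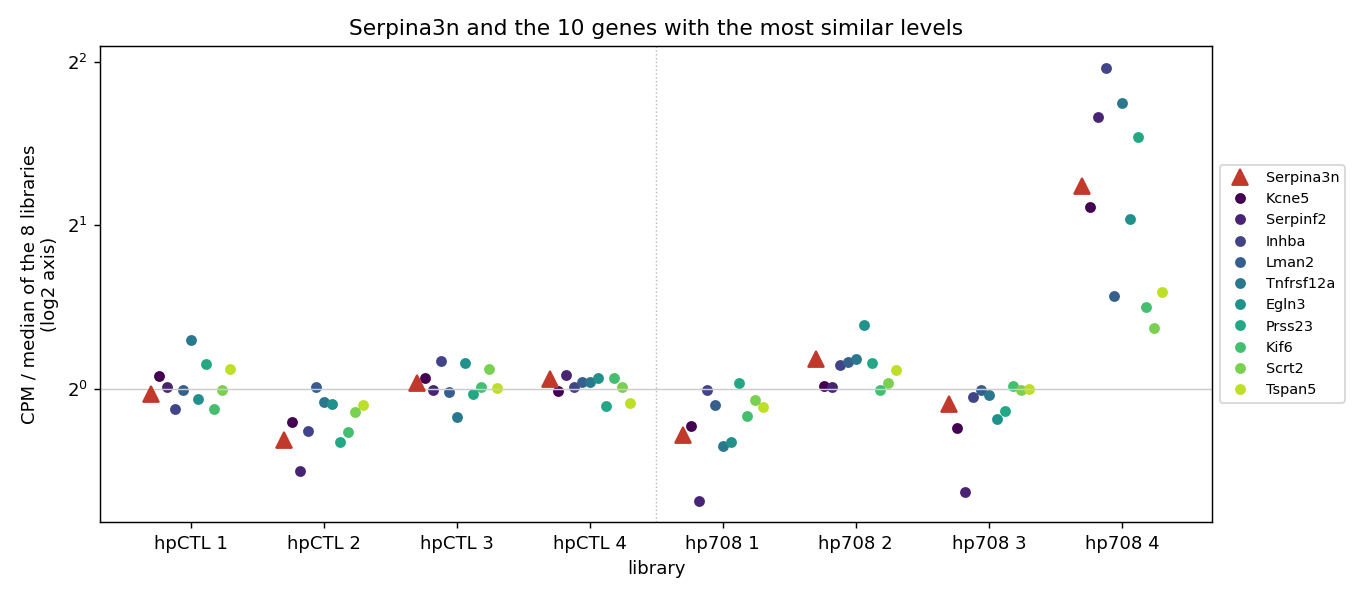
Level of Serpina3n (red triangles) and of the 10 genes most like it, as CPM divided by the gene's median over the 8 libraries, on a log2 axis, for hpCTL (left) and hp708 (right). All 11 genes were highest in hp708 replicate 4, by 1.30 (Scrt2) to 3.94 times (Inhba) the median of the other libraries. The 10 genes were picked for likeness to Serpina3n, whose spread came mostly from that library.

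Levels of genes that mark other cells and states are given beside the members, since fewer cells of a type and less RNA per cell cannot be told apart in bulk tissue. The 26 interferon-stimulated genes, among them Cd74, B2m and H2-K1, summed to 1143, 2163, 2590 and 3161 CPM in hpCTL and to 886, 2683, 1120 and 2923 CPM in hp708. The low libraries were again hpCTL replicate 1 and hp708 replicates 1 and 3. The 7 T cell markers, all with reads, summed to 12.8, 26.7, 39.3 and 27.6 CPM in hpCTL and to 11.5, 28.9, 11.1 and 44.4 CPM in hp708, and the 6 plasma cell markers to 2251, 3899, 6204 and 3863 CPM and to 2170, 5204, 2284 and 3263 CPM. Both lists were lowest in the same libraries as Serpina3f. The 6 microglia markers summed to 628, 715, 841 and 807 CPM in hpCTL and to 523, 804, 583 and 871 CPM in hp708. They too were lowest in the libraries low in Serpina3f. So were the summed lists of reactive astrocyte genes, proteases and inducing pathways, which are described below. The 7 astrocyte markers summed to 4027 to 4332 CPM in hpCTL and to 4020 to 4741 CPM in hp708. The 6 neuron markers summed to 5265 to 5803 and 4973 to 5815 CPM. The 6 choroid plexus markers moved otherwise, with 51.9, 1633, 148 and 2058 CPM in hpCTL replicates 1 to 4 and 2993, 4391, 104 and 174 CPM in hp708 replicates 1 to 4. The part of these cells in the Serpina3 values was not tested.

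**Figure D5:**
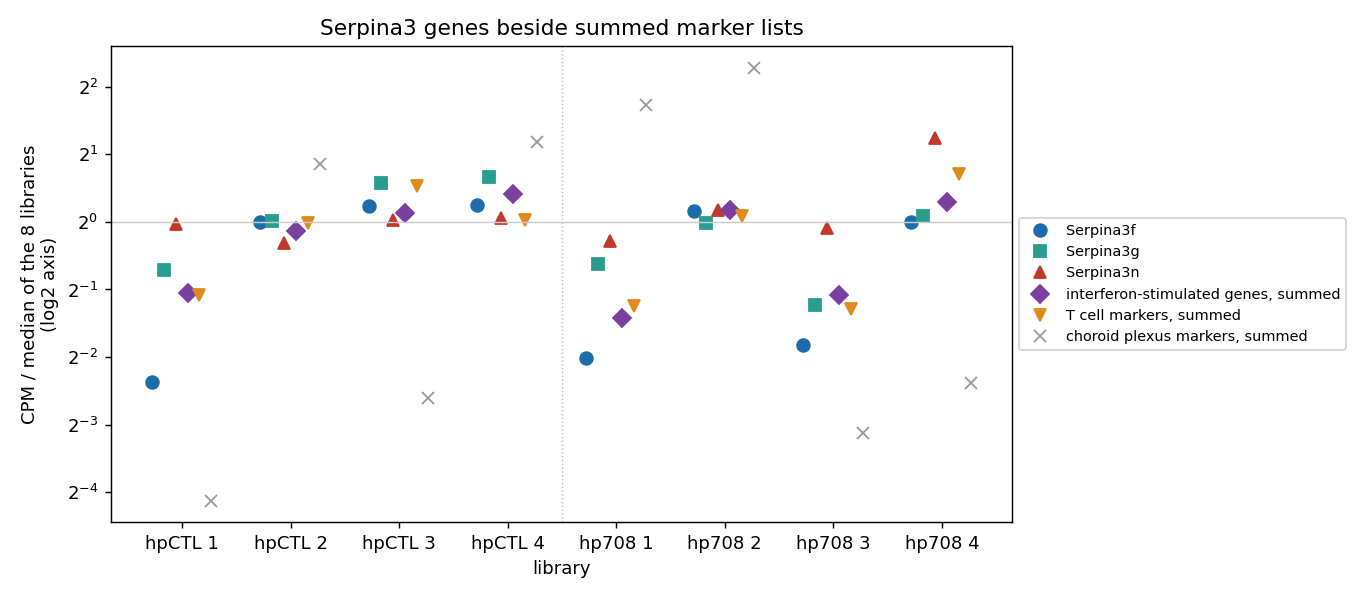
Levels of Serpina3f, Serpina3g and Serpina3n and summed levels of interferon-stimulated genes, T cell markers and choroid plexus markers, each as CPM divided by its median over the 8 libraries, on a log2 axis, for hpCTL (left) and hp708 (right). Serpina3f, Serpina3g, the interferon-stimulated genes and the T cell markers were low in hpCTL replicate 1 and hp708 replicates 1 and 3, while the choroid plexus markers were at 2993 CPM in hp708 replicate 1.

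All gene lists here were chosen with earlier results of these data known. In the same fit, 0 genes of any of these lists passed FDR 0.05 (edgeR quasi-likelihood test). At an unadjusted p under 0.05, 25 of the 26 interferon-stimulated genes lay below hpCTL, beside 7.7% of all tested genes in either direction. Without surrogate variables 0 of 26 were under that p in either direction, beside 1.81%. Without the library labelled hp708 replicate 1, 2 of 26 were under it in either direction, beside 12.2%. The median of their fitted differences was -0.71 on the log2 scale, and -0.24 without surrogate variables. With the likelihood ratio test 14 of the 26 passed the FDR, beside 0.736% of all tested genes. With DESeq2 10 did, beside 0.556%, both with 3 surrogate variables. Of the 7 T cell markers 5 were lower at that p (Cd3e, Cd3d, Cd8a, Cd4 and Cd2), as were 5 of 6 plasma cell markers (Jchain, Mzb1, Igkc, Ighm and Xbp1) and 4 of 6 microglia markers (among them Tmem119, Csf1r and C1qa). Without surrogate variables, and also without the library labelled hp708 replicate 1, 0 markers of these 3 lists were under that p. Of the 7 astrocyte markers 1 was higher (Slc1a2), of the 6 neuron markers 1 was lower (Tubb3), and of the 6 oligodendrocyte, 6 endothelial, 6 choroid plexus and 6 fibroblast markers 0 passed in either direction. Without the library labelled hp708 replicate 1 these were 6, 0, 2 and 3, beside 12.2% of 17425 genes. The likelihood ratio test called 1 microglia marker (C1qa) and 2 plasma cell markers (Igkc and Ighm), beside 0.736% of all tested genes. DESeq2 called 0 of both lists, beside 0.556%. Neither of these tests called a gene of the T cell, astrocyte, neuron, oligodendrocyte, endothelial, choroid plexus or fibroblast lists. Without the library labelled hp708 replicate 1, the median was -0.09 for the interferon-stimulated genes, -0.05 for the T cell markers, -0.33 for the plasma cell markers and 0.04 for the microglia markers, against -0.70, -0.59 and -0.24 for the last 3 lists with all libraries. Without hp708 replicate 4 it was -1.01 for the interferon-stimulated genes and -1.15 for the T cell markers, without hp708 replicate 3 -0.39 for the T cell markers, and without hpCTL replicate 3 -0.34 for the plasma cell markers.

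Pathways that induce Serpina3 genes were measured through 29 genes of cytokine, interferon and glucocorticoid signalling. Besides receptors, kinases and transcription factors, the list holds inhibitors of these pathways and glucocorticoid target genes. Of these 29, 8 were lower, inhibitors among them, and 0 higher at an unadjusted p under 0.05. The list's median difference was -0.11 on the log2 scale (-0.01 without surrogate variables). Beside 7.7% of all tested genes this was 8 of 29, and it fell to 0 of 29 without surrogate variables, beside 1.81%. Without the library labelled hp708 replicate 1, 3 of 29 were under that p in either direction, beside 12.2%, and the median was -0.0068. The likelihood ratio test called 6 of the 29, beside 0.736% of all tested genes, and DESeq2 3, beside 0.556%, among them Irf7 and Irf1. Jak1 and Il6st, a kinase and a shared receptor chain of the interleukin-6 family, had log2 fold changes of 0.06 (SE 0.07) and 0.05 (SE 0.06).

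Reactive astrocyte genes were taken as the state in which Serpina3n is best known. Of 34 tested, 1 was higher (Ptgs2) and 8 were lower at an unadjusted p under 0.05, and the median log2 fold change was -0.16, turning to 0.04 without surrogate variables. Without them 0 of 34 were under that p, beside 1.81% of all tested genes, against 7.7% with them. Without the library labelled hp708 replicate 1, 11 of 34 were under that p in either direction, beside 12.2%, with a median of 0.15. The likelihood ratio test called 5 (Gbp2, Cxcl10, Psmb8, H2-D1 and Iigp1), beside 0.736% of all tested genes. DESeq2 called 3 (Cxcl10, Psmb8 and Iigp1), beside 0.556%. All of these called genes are interferon-inducible. Gfap, the astrocyte filament protein, was at 588, 564, 732 and 666 CPM in hpCTL and at 701, 823, 494 and 1250 CPM in hp708. It was highest in hp708 replicate 4, where Serpina3n was highest too. C4b, complement component 4, was at 173, 349, 374 and 427 CPM in hpCTL and at 212, 400, 256 and 523 CPM in hp708, and was low in the libraries low in Serpina3f while highest in hp708 replicate 4.

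Among 13 tested proteases that Serpina3 inhibitors are known to meet, 5 were lower (Gzmb, Ctsc, Ctsd, Ctss and Ctsz) and 0 higher at an unadjusted p under 0.05 (median log2 fold change -0.25, -0.04 without surrogate variables). Without surrogate variables 0 of 13 were under that p, beside 1.81% of all tested genes, against 7.7% with them. Without the library labelled hp708 replicate 1, 2 of 14 were under that p in either direction, beside 12.2%, with a median of 0.04. The likelihood ratio test called 2 (Ctss and Gzmb), beside 0.736% of all tested genes, and DESeq2 1 (Ctss), beside 0.556%. Ctss, the cysteine protease cathepsin S of microglia and macrophages, was at 245, 296, 368 and 366 CPM in hpCTL and at 166, 340, 202 and 379 CPM in hp708, again low in the libraries low in Serpina3f. Ctsd and Ctsb, the lysosomal cathepsins D and B, had log2 fold changes of -0.23 (SE 0.09) and -0.11 (SE 0.06). Gzmb, the granzyme B gene of cytotoxic lymphocytes, was at 0.214, 1.53, 0.943 and 0.488 CPM in hpCTL and at 0.0725, 0.826, 0.0853 and 0.413 CPM in hp708.

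Serpins outside the cluster were set beside the members. Of 13 tested serpins of other clades 1 was lower and 0 higher at an unadjusted p under 0.05, beside 7.7% of all tested genes, and the list's median difference was 0.01 on the log2 scale. It was 1 of 13 without surrogate variables too, beside 1.81%. Without the library labelled hp708 replicate 1, 6 of 13 were under that p in either direction, beside 12.2%, with a median of 0.14. The likelihood ratio test and DESeq2 called 0. With all libraries the gene below that p was Serpini1, the neuronal inhibitor neuroserpin. It was at 192, 197, 176 and 184 CPM in hpCTL and 193, 142, 158 and 138 CPM in hp708 (log2 fold change -0.18, SE 0.06). Serpine2, the thrombin inhibitor protease nexin, had a log2 fold change of 0.01 (SE 0.06).

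Sequences around RefSeq start sites of the members were compared because the members differ so widely in level. RefSeq promoter windows, from 250 bases before to 50 after the start, were given for 5 of the 7 members (6 windows, 2 of them for Serpina3f), and each was placed on GRCm39 by an exact match. The windows of Serpina3n and Serpina3c were 93.5% identical over 294 aligned bases, while the genes stood at 29.6 and 0.0549 CPM per kb. The Serpina3c window lies inside the annotated span of that gene, chr12:104110471-104141177. Its level covers all annotated exons, not only transcripts from this start. Those of Serpina3f and Serpina3g were 83.7% identical over 202 aligned bases, and Serpina3n shared 68.3% with Serpina3f and 69.6% with Serpina3g. Capitals mark motif matches.
Serpina3n, chr12:104372717-104373016, plus strand: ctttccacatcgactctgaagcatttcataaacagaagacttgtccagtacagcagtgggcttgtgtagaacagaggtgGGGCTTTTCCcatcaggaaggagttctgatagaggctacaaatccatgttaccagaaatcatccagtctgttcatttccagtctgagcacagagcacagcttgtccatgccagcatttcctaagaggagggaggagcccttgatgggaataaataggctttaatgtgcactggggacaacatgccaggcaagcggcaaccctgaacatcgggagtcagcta
Serpina3c, chr12:104120082-104120381, minus strand: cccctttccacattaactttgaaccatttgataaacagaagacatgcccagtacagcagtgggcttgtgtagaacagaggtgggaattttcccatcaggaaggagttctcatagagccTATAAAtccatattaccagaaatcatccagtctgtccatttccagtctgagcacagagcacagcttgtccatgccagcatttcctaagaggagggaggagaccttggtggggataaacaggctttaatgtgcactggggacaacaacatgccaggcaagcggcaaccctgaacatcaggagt
Serpina3f, chr12:104180553-104180852, plus strand: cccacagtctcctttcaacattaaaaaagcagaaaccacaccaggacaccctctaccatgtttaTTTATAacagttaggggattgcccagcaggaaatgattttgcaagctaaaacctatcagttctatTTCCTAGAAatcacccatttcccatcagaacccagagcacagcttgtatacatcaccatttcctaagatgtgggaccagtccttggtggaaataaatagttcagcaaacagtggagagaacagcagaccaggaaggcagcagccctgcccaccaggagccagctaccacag
Serpina3g, chr12:104202156-104202455, plus strand: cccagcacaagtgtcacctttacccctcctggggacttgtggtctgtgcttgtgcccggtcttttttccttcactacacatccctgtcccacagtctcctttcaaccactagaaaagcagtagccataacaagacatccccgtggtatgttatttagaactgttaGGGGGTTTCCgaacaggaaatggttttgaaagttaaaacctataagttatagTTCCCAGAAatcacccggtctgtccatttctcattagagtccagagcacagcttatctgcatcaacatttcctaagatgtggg

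The following motifs were searched on both strands. TTCNNNGAA, the form bound by STAT proteins, occurred in 3 of 5 members (Serpina3f, Serpina3g and Serpina3i) and in 8.30% of 32851 promoter windows of the same length. An NF-kappaB form, GGG and TTCC with 3 bases between, occurred in 3 of 5 members (Serpina3g, Serpina3i and Serpina3n) and in 5.56% of windows. TATAAA occurred in 2 of 5, Serpina3c and Serpina3f, and in 13.6% of windows. A form of the interferon-stimulated response element (GAAA and GAAA with 2 bases between), a glucocorticoid receptor form (AGAACA and TGTTC with 3 bases between) and TGANTCA, an AP-1 form, occurred in 0 of 5 and in 3.44%, 0.0487% and 7.81% of windows. No match in a member overlapped another motif. The windows are related copies, so these matches are not independent of each other. The STAT form of Serpina3f read TTCCTAGAA and that of Serpina3g read TTCCCAGAA, at positions -121 to -113 and -33 to -25 from the start.

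The expressed hairpin carries miR-708-5p, shown with its seed (bases 2 to 8) in capitals, from RefSeq.
mmu-miR-708-5p: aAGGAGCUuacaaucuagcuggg
A 7-base match to this seed (AGCTCCT, or GCTCCTA) was present in the 3' untranslated region of 4 of the 6 members with one annotated, against 21.3% of 14809 tested genes. The 4 were Serpina3c, Serpina3g, Serpina3i and Serpina3n, and Serpina3f and Serpina3m had none. All 4 sites lie in the same stretch of the copied genes, as the 27 bases around each show (site in capitals).
Serpina3n, bases 584 to 590 of the 3' untranslated region: gggtcagagcAGCTCCTttcccctggc
Serpina3g, bases 459 to 465: gggtcagagcAGCTCCTccccctgtag
Serpina3i, bases 572 to 578: gggtcagagcAGCTCCTctcccgctaa
Serpina3c, bases 586 to 592: aggtcagagcAGCTCCTctccccctgg
The same 7 letters are preceded by gtcagagc in every one of them.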

How the data were processed

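Poly(A) RNA of whole hippocampi was sequenced in 8 libraries, 4 per group, each from a separate mouse. The authors aligned reads to GRCm39 with STAR 2.7.8a and counted them per gene with featureCounts 1.6.4 (GENCODE annotation), and deposited raw read counts; strand and multi-mapping settings are not given in the sources used here. Totals ran from 22606824 to 28462428 counts per library, so single-library intervals would cover counting error only.

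Of 40659 Ensembl identifiers, 39641 were named from GENCODE M39. Counts were tested with edgeR 4.0.16 (filterByExpr, trimmed mean of M-values (TMM) scaling, quasi-likelihood in its older form, Benjamini-Hochberg adjustment over 17252 genes) with 3 surrogate variables from sva 3.50.0. The study's methods name the edgeR likelihood ratio test with surrogate variables and a figure legend of it the quasi-likelihood test; the likelihood ratio test and DESeq2 1.42.0 were alternatives here, and both call more genes. CPM is scaled by TMM, and log2 CPM used a prior count of 2. CPM per kb divides by all exon bases of a gene in M39, a later release than the authors counted on, so these levels are approximate. Cage mates share housing, and cages are not given per mouse.

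Members and gene lists were chosen with earlier results of these data known. The lists were other Serpina3 genes, clade A serpins, serpins of other clades, proteases, inducing pathways, reactive astrocyte genes, interferon-stimulated genes, and markers of astrocytes, microglia, oligodendrocytes, neurons, endothelium, T cells, plasma cells, choroid plexus and fibroblasts; some genes of these lists are not reported here by name. Named genes were the members, all other Serpina3 genes, the genes past FDR 0.05 and the 3 highest by mean CPM of each list, and the 10 (Serpina3n) or 5 (Serpina3f, Serpina3g) genes of mean CPM of at least 1 with the highest Pearson r to a member; genes named as members of small counts and Gzmb were added after their values were seen. Within groups, log2 CPM of libraries correlated at 0.971 or more, and no pair of libraries were copies of each other.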

Additional observations from a re-analysis of the deposited data

How the results depend on the processing

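The number of genes past FDR 0.05, 1 with 3 surrogate variables (the antibody segment Igkj1), was 0 without surrogate variables, 0 with 1 and 0 with 2, 127 with the likelihood ratio test, 3 with the newer edgeR quasi-likelihood, 96 with DESeq2 and 3 surrogate variables, 2 with DESeq2 alone, 12 with no filter on low counts and 0 under a minimum of 10 counts throughout. Leaving out single libraries, it was 0 (hpCTL replicate 3), 3 (hp708 replicates 2 and 4), 4 (hpCTL replicate 2), 6 (hpCTL replicate 1, hp708 replicate 3), 7 (hpCTL replicate 4) and 56 (hp708 replicate 1), and 0 each time when surrogate variables were dropped too. The number of Serpina3 members past it, 0, became 1 with the likelihood ratio test (Serpina3f) and 2 with DESeq2 and 3 surrogate variables (Serpina3f and Serpina3g), and stayed 0 in the other settings, with 1 library left out included. The cause was not tested.

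The log2 fold change of Serpina3f stayed negative in all settings, between -1.54 and -0.15, and that of Serpina3g between -1.06 and -0.38. Serpina3n changed sign without hp708 replicate 4 (-0.073), and Serpina3h without hp708 replicate 2 (0.097, and 0.050 without surrogate variables) and without hp708 replicate 3 (0.012). Replicate numbers did not pair the mice: deviations of same-numbered libraries correlated at -0.04 to 0.02. With the replicate block, 1 gene (Ighv9-2) and 0 members passed. Depth limits Serpina3c, Serpina3h, Serpina3i and Serpina3m, which had at most 24 reads in a library.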
